A study of Sus scrofa with 8 samples.

Results

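Osteopontin and the receptors known to bind it were described in pig endometrium, the inner lining of the uterus. The set held 10 genes of the 21064 Entrez genes in the deposited count tables. It comprised SPP1, which encodes osteopontin, the integrin alpha subunit genes ITGAV, ITGA4 and ITGA5, the beta subunit genes ITGB1, ITGB3, ITGB5, ITGB6 and ITGB8, and CD44, which encodes a receptor outside the integrin family. Each gene was found through the Entrez identifier that a RefSeq gene table pairs with its symbol, and was represented by its most abundant transcript, the one of highest mean count. The genes held 16 transcripts in all, 6 of CD44, 2 of ITGA5 and 1 of each of the others, and 10 of 10 passed the filter on low counts.

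The libraries came from prepubertal German Landrace gilts, young female pigs, in which ovulation was timed with 750 IU PMSG and, 72 h later, 500 IU hCG. The 4 pregnant gilts were inseminated with Pietrain semen 24 h and 36 h after hCG, and the 4 control gilts received supernatant of centrifuged semen from the same boar. Endometrium without the muscle layer was taken on day 14 after insemination, in pregnant animals from the reddened zones where embryos attach and in controls from similar places, so that pregnancy and the sampled zone cannot be told apart. Each library stands for 1 animal, with RNA from 3 places of 1 uterine horn combined. No other treatment or genotype is given in the labels, and no age beyond prepuberal.

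Osteopontin is a secreted, acidic phosphoprotein that carries an arginine-glycine-aspartate motif. Integrins are receptors made of an alpha and a beta chain that link matrix proteins outside the cell to the actin skeleton inside it. ITGAV pairs with each of the 5 beta chains studied here, while ITGA4 and ITGA5 pair with ITGB1. In the pig, osteopontin of the uterine epithelium is known as an oestrogen-induced bridge between integrins of the uterine surface and those of the trophectoderm, the outer layer of the conceptus. Integrins formed by ITGAV with ITGB6 or ITGB8 are also known to release active TGF-beta from its latent complex.

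Of the 10 genes 7 were higher in pregnant endometrium and 0 lower. The test was the quasi-likelihood test of edgeR, with p-values adjusted over all transcripts by the Benjamini-Hochberg method and a threshold of 0.05. Among the 18783 transcripts tested 21.3% passed, 11.2% higher and 10.1% lower. The 3 that did not pass were ITGA5, ITGB1 and ITGB8. Also at an unadjusted p under 0.05, with DESeq2 and with limma voom, 7 were higher and 0 lower. The groups did not overlap for 5 of the 10 genes, SPP1, ITGAV, ITGA4, ITGB3 and ITGB6, each higher in pregnant animals, while over all transcripts the groups lay apart for 26.1%, and for 13.2% with the pregnant group higher. The median log2 change over the 10 genes was 0.76, and over all transcripts tested it was −0.023. The genes were chosen with results of these data known, so these counts describe the set and are no independent evidence of its direction.

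**Figure D1:**
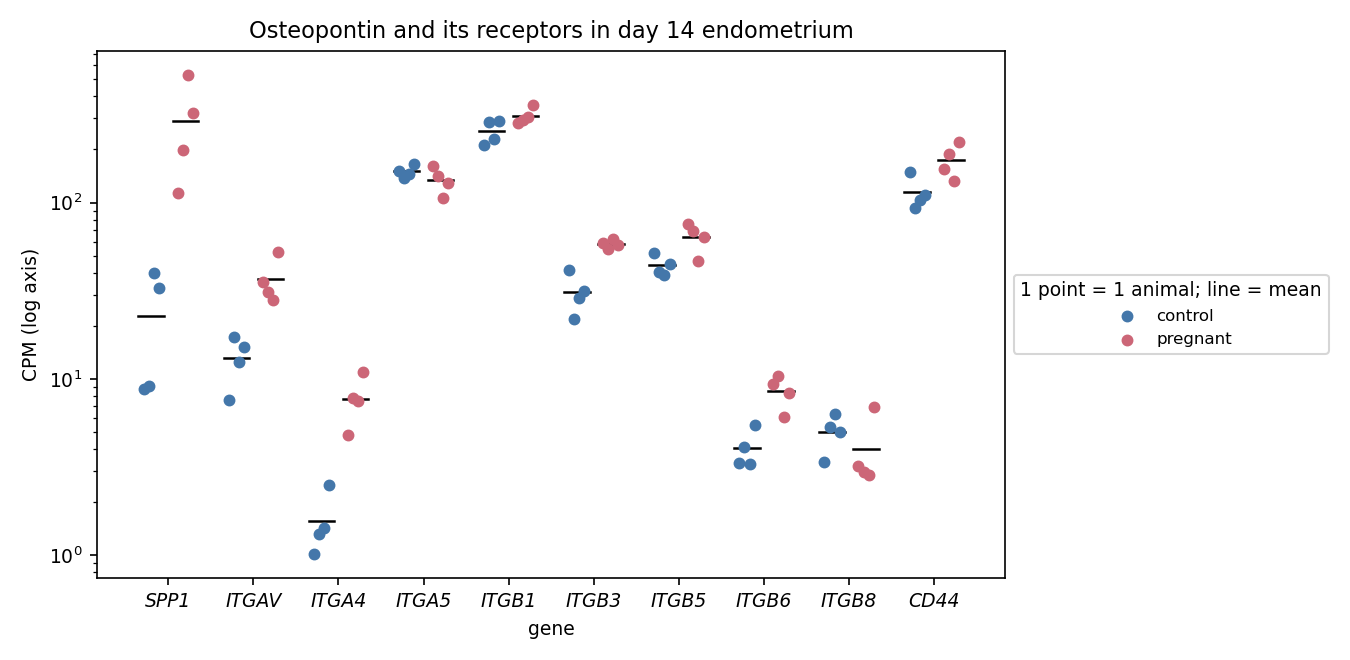
Level of each gene in each animal in CPM (counts relative to the TMM-scaled library size, vertical log axis), with control animals in blue, pregnant animals in red and the group mean as a line. The points of the groups lie apart for SPP1, ITGAV, ITGA4, ITGB3 and ITGB6 and mix for the other genes.

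Levels are given as CPM, the count of a transcript relative to the scaled total count of its library. Total counts per library ran from 28035007 to 41016150. On a first principal component that held 76.9% of the variance of the most variable transcripts, control replicate 4 lay at −27.8, nearer to the pregnant libraries (35.5 to 42.2) than the other controls (−46.1 to −42.3). The labelled tissue was checked against its markers. All 8 endometrium markers and all 10 matched epithelial markers had reads, with summed levels of 361 to 489 CPM and 2349 to 3516 CPM in controls and of 410.1 to 550.4 CPM and 1676 to 2225 CPM in pregnant animals. Most of the endometrium sum was ACP5, known as uteroferrin (202 to 417 CPM). Of the 8 endometrium markers 1 rose, HAND2 (log2 change 0.98 ± 0.17), and 2 fell, ESR1 (−1.33 ± 0.15) and MSX1 (−0.98 ± 0.18). Among all transcripts 11.2% were higher and 10.1% lower. Of the 8 matched genes typical of trophectoderm, CDX2, ELF5, CYP17A1, IFNG and STAR stayed under 1 CPM in every library. Of the 4 of these genes that were tested, 1 rose and 1 fell. GATA3 rose from 2.74 ± 0.901 to 6.47 ± 1.38 CPM (1.24 ± 0.27 on the log2 scale, adjusted p = 0.00823 with edgeR), with the groups apart, and KRT8, also an epithelial marker, fell. TFAP2C, named after its values were seen, was at 3.10 ± 1.42 and 3.21 ± 0.298 CPM and did not pass. The part of conceptus cells in the results was not tested. In tissue made of many cell types, a change in the number of cells of a type and a change in RNA per cell cannot be told apart.

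The ligand gene, SPP1, showed the largest change of the set (Entrez gene 397087, chromosome 8 of Sscrofa10.2, the build of all positions given here, 140307937 to 140315414, minus strand, 7 exons). In the order of the replicate numbers, as for each gene below, the controls had 8.82, 9.13, 40.0 and 32.9 CPM and the pregnant animals 113, 198, 531 and 322 CPM. Every pregnant animal stood above every control, and in controls replicates 3 and 4 stood well above replicates 1 and 2. The mean rose from 22.7 ± 16.1 to 291 ± 182 CPM (SD, n = 4 each), a log2 change of 3.68 ± 0.66 (SE, edgeR adjusted p = 0.00393). That is 12.8-fold, and the size of this change exceeded that of 99.2% of all transcripts tested.

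SPP1 also varied more between animals of a group than nearly all other transcripts. Its SD on the log2 scale was 1.17 in controls and 0.958 in pregnant animals, above that of 97.9% and 97.5% of the transcripts tested. Per kb of exon, the scale on which genes of different length can be compared, its mean level rose from rank 4716 to rank 311 among 15913 genes. Leaving out any 1 library gave log2 changes of 3.22 to 4.10, with edgeR adjusted p = 0.00398 to 0.0164.

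Macrophages are known to express SPP1 as well. Of 12 tested macrophage markers 9 rose and 1 fell, beside 11.2% higher and 10.1% lower among all transcripts. The summed level of the 13 matched markers was 405 to 734 CPM in controls and 1171 to 1614 CPM in pregnant animals. Among controls the sum was highest in replicate 1 (734 CPM), the library with the lowest SPP1. Among pregnant animals it was highest in replicate 3 (1614 CPM), the library with the highest SPP1. MARCO stayed under 1 CPM throughout, and 0 of the 13 markers were without reads. The part of macrophages in the SPP1 result was not tested.

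The genes with the most similar profile to SPP1 over the 8 libraries were sought among 10216 named genes with an average log2 CPM of at least 1. Likeness was the mean absolute difference between log2 CPM values, each gene centred on its own mean over all 8 libraries. The measure thus also holds the difference between the groups, and a gene with a similar log2 change scores as near. The nearest were TNFSF10, the death ligand TRAIL (0.486), PSTPIP2, an adaptor of the actin skeleton (0.542), CD274, the checkpoint ligand PD-L1 (0.578), CASP1, the protease that activates interleukin-1 beta (0.588), and IFIT2, an interferon-induced antiviral protein (0.597). The median over all candidates was 1.90. The controls had 2.85, 9.16, 9.06 and 12.4 CPM of TNFSF10, and the pregnant animals 55.0, 96.2, 134 and 114 CPM, in replicate order. As with SPP1, its lowest control was replicate 1, and among pregnant animals replicate 1 was lowest and replicate 3 highest. The other controls differed. SPP1 was highest in control replicate 3 (40.0 CPM) and nearly as low in replicate 2 (9.13 CPM) as in replicate 1. TNFSF10 was highest in control replicate 4, with replicates 2 and 3 alike. The log2 change was 3.57 ± 0.43 for TNFSF10, 3.35 ± 0.42 for PSTPIP2, 4.30 ± 0.43 for CD274, 3.42 ± 0.38 for CASP1 and 3.34 ± 0.60 for IFIT2. The value for IFIT2 was 2.48 without pregnant replicate 3. Of the receptors the nearest to SPP1 on this measure were ITGA4 (0.862, rank 83) and ITGAV (1.14, rank 304), and the farthest was ITGB8 (2.09, rank 8330). The receptors fell in the same order as their log2 changes, so this ranking adds little to those changes.

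**Figure D2:**
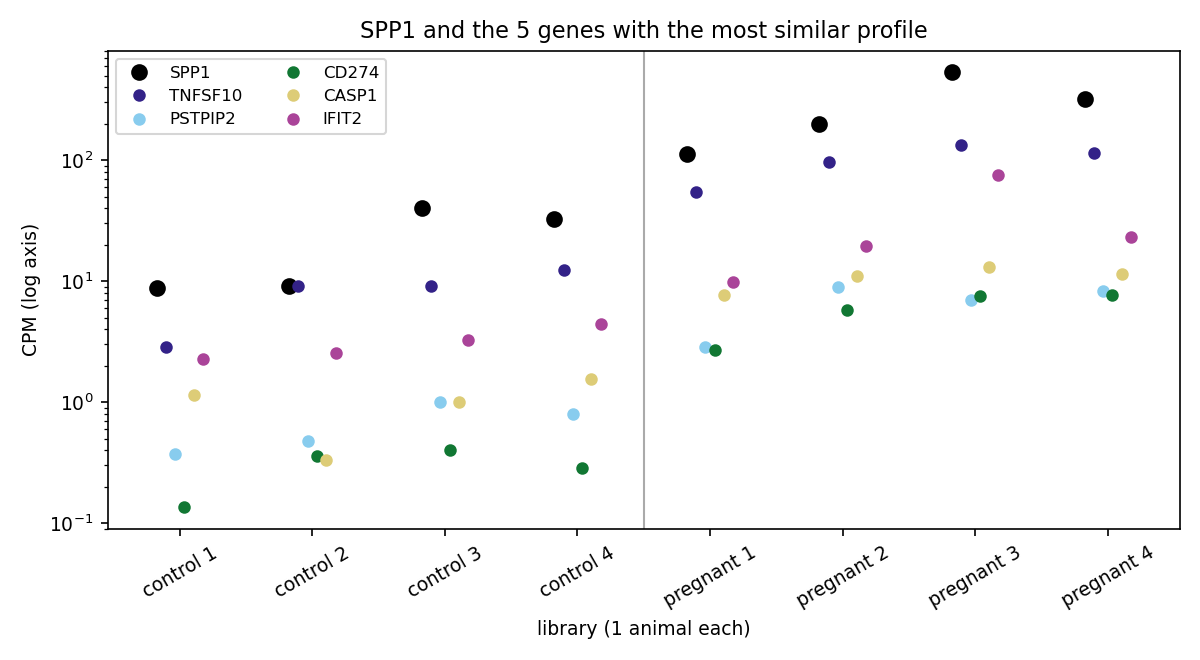
Level in CPM (vertical log axis) of SPP1 in black and of the 5 genes with the most similar profile in colours, for each of the 8 libraries, with controls left of the vertical line and pregnant animals right of it. For all 6 genes each pregnant value lies above each control value, and SPP1 spans 113 to 531 CPM within the pregnant group.

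ITGAV encodes the alpha chain shared by the receptors best known for osteopontin (Entrez gene 397285, chromosome 15, 101654957 to 101717934, plus strand, 28 exons). Controls had 7.60, 17.3, 12.4 and 15.1 CPM and pregnant animals 35.6, 31.1, 27.9 and 52.4 CPM. The groups lay apart, with control replicate 1 lowest and pregnant replicate 4 highest. The mean rose from 13.1 ± 4.17 to 36.7 ± 10.9 CPM, a log2 change of 1.49 ± 0.27 or 2.80-fold (edgeR adjusted p = 0.0028).

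ITGA4 is known above all from lymphocytes, where its pair with ITGB1 binds VCAM1 and fibronectin and also a site of osteopontin next to the arginine-glycine-aspartate motif (Entrez gene 100521477, chromosome 15, 96521577 to 96602147, plus strand, 28 exons). Controls had 1.02, 1.32, 1.43 and 2.49 CPM and pregnant animals 4.78, 7.76, 7.44 and 10.9 CPM. The groups lay apart, with replicate 4 the highest in each of them. From 1.56 ± 0.643 CPM the mean rose to 7.72 ± 2.503 CPM, a log2 change of 2.30 ± 0.33 or 4.91-fold (edgeR adjusted p = 7.63e-04). ITGA4 had the smallest edgeR p of the set.

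Most markers of T and natural killer cells were also higher in pregnant animals. Of 15 tested 13 rose and 0 fell (edgeR; 15 and 0 at an unadjusted p under 0.05, 14 and 0 with DESeq2, 13 and 0 with limma voom). The sum of the 16 matched markers was 44.4 to 109 CPM in controls and 195 to 278 CPM in pregnant animals, and 0 of them were without reads. In controls the sum was highest in replicate 1 (109 CPM), where ITGA4 was lowest. Across control replicates 2, 3 and 4 the sum (44.4, 54.8 and 72.5 CPM) and ITGA4 rose in the same order. In pregnant animals the sum was lowest in replicate 4 (195 CPM), where ITGA4 was highest. Among pregnant replicates 1 to 3, replicate 1 was lowest for both (sum of 204 CPM). The part of these cells in the ITGA4 result was not tested.

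ITGA5, the alpha chain of the classical fibronectin receptor, did not pass (Entrez gene 100155091, chromosome 5, 20442123 to 20465305, minus strand, 30 exons). Controls had 152, 139, 146 and 166 CPM and pregnant animals 162, 141, 107 and 130 CPM, so that the groups overlapped, with pregnant replicate 3 lowest. The means were 150.5 ± 11.5 and 135 ± 23.0 CPM, and the log2 difference was −0.16 ± 0.14 with a 95% interval of −0.46 to 0.14 (edgeR adjusted p = 0.45). Its other transcript gave the same result (adjusted p = 0.449), as its counts differ little from those of the first. Per kb, ITGA5 stood at 10.4 ± 4.22 times the level of ITGAV in controls and at 3.17 ± 0.805 times in pregnant animals, with ratios of 6.62 to 16.5 and of 2.04 to 3.75. The ratios of the groups did not overlap.

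Among the 5 beta chains of the set ITGB1, which pairs with many alpha chains, had the highest level per kb and did not pass (Entrez gene 397019, chromosome 10, 61450699 to 61502940, minus strand, 16 exons). Controls had 211, 286, 231 and 290.4 CPM and pregnant animals 283.5, 295, 305.5 and 356 CPM. Control replicates 2 and 4 reached into the pregnant range. The means were 254 ± 39.8 and 310 ± 31.8 CPM, and the log2 difference was 0.28 ± 0.14 with a 95% interval of −0.022 to 0.59 (edgeR adjusted p = 0.175).

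ITGB3, the beta chain of the vitronectin receptor and of the platelet fibrinogen receptor, rose (Entrez gene 397063, chromosome 12, 16718914 to 16775378, minus strand, 15 exons). Controls had 41.6, 21.8, 28.8 and 31.5 CPM and pregnant animals 59.4, 54.2, 62.1 and 57.7 CPM. The groups lay apart, and the pregnant values were close together. On average ITGB3 rose from 30.9 ± 8.18 to 58.3 ± 3.28 CPM, a log2 change of 0.92 ± 0.17 or 1.89-fold (edgeR adjusted p = 0.00398). The SD on the log2 scale in pregnant animals, 0.082, was above that of only 5.49% of the transcripts tested.

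ITGA2B, its partner chain on platelets, did not pass, with 10.25 ± 1.14 CPM in controls against 7.80 ± 0.481 CPM (adjusted p = 0.0845 with edgeR). The groups of ITGA2B still lay apart, with 9.19 to 11.4 CPM in controls and 7.20 to 8.205 CPM in pregnant animals. ITGA2B was named after its values were seen. Of the 9 matched platelet and megakaryocyte markers, 5 could be tested and 0 passed in either direction with edgeR, beside 21.3% of all transcripts. At an unadjusted p under 0.05 there were 1 higher and 2 lower, with DESeq2 1 and 2, and with limma voom 0 and 0. Their sum was 19.4 to 25.0 CPM in controls and 14.9 to 16.5 CPM in pregnant animals, and GP1BB, GP5, PPBP and TREML1 stayed under 1 CPM in every library.

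ITGB5, another partner of ITGAV for vitronectin and osteopontin, was higher in pregnant animals by a small margin (Entrez gene 100134977, chromosome 13, 145042452 to 145113289, plus strand, 9 exons). Controls had 52.1, 40.5, 38.7 and 44.8 CPM and pregnant animals 75.5, 68.7, 46.4 and 63.4 CPM. Pregnant replicate 3 lay within the control range. The mean rose from 44.0 ± 5.93 to 63.5 ± 12.4 CPM, a log2 change of 0.53 ± 0.16 or 1.44-fold (edgeR adjusted p = 0.0405). Leaving out any 1 of control replicates 2, 3 and 4 or of pregnant replicates 1, 2 and 4 left ITGB5 short of the threshold (adjusted p = 0.0637 to 0.109 with edgeR, and 0.0109 to 0.109 over all alternatives).

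ITGB6, a beta chain known from epithelia, rose from a low level (Entrez gene 100037276, chromosome 15, 74181821 to 74276813, minus strand, 15 exons). Controls had 3.32, 4.13, 3.29 and 5.44 CPM and pregnant animals 9.38, 10.3, 6.05 and 8.30 CPM. The groups lay apart, by the smallest gap between control replicate 4 and pregnant replicate 3. On average ITGB6 rose from 4.05 ± 1.01 to 8.51 ± 1.84 CPM, a log2 change of 1.07 ± 0.23 or 2.10-fold (edgeR adjusted p = 0.00823). In the same animals 1 of 10 tested epithelial markers rose, 4 fell and 5 did not pass, beside 11.2% higher and 10.1% lower among all transcripts. The keratin genes KRT8 (−2.10 ± 0.19) and KRT18 (−1.58 ± 0.18) and the splicing regulator gene ESRP1 (−1.01 ± 0.14) were among those that fell. The marker that rose was CLDN4 (1.06 ± 0.20), named after its values were seen.

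ITGB8, the other beta chain that releases TGF-beta, did not pass (Entrez gene 100037284, chromosome 9, 98590374 to 98766513, plus strand, 14 exons). Controls had 3.39, 5.33, 6.31 and 5.01 CPM and pregnant animals 3.19, 2.98, 2.85 and 6.92 CPM. Pregnant replicates 1 to 3 lay below every control, and pregnant replicate 4 lay above every control. The means were 5.01 ± 1.21 and 3.98 ± 1.97 CPM, and the log2 difference was −0.33 ± 0.32 with a 95% interval of −1.04 to 0.38 (edgeR adjusted p = 0.505). Without pregnant replicate 4 it was −0.74 (edgeR adjusted p = 0.083; range over all alternatives 0.083 to 0.74).

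**Figure D3:**
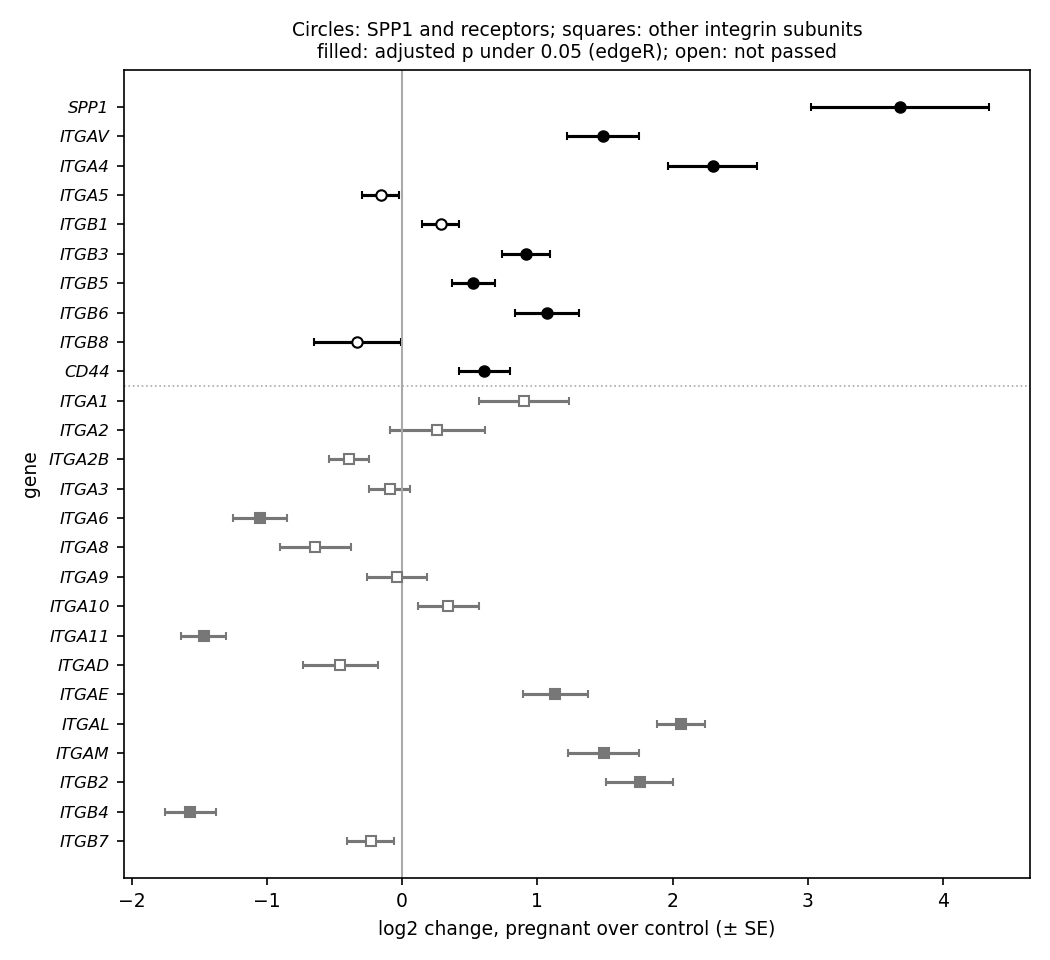
Log2 change of pregnant over control endometrium (horizontal axis, ± SE) for SPP1 and its receptors as circles and for the 16 other integrin subunits tested as squares, filled where the adjusted p was under 0.05. The filled circles all lie to the right of 0, from 0.53 for ITGB5 to 3.68 for SPP1, while filled squares lie on both sides.

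Levels of different genes were compared per kb of exon. In controls ITGB1 was highest (66.7 ± 10.4 CPM per kb), followed by CD44 (35.9 ± 7.71), ITGB5 (35.4 ± 4.77) and ITGA5 (33.9 ± 2.58), which overlapped with each other. SPP1 (15.9 ± 11.3) and ITGB3 (6.78 ± 1.79) came next and overlapped, as did ITGAV (3.58 ± 1.14), ITGB8 (2.18 ± 0.526) and ITGB6 (2.15 ± 0.536) below them. ITGA4 was lowest at 0.339 ± 0.139 CPM per kb.

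In pregnant animals SPP1 was at 203 ± 127 CPM per kb, with its lowest animal, at 78.7, inside the range of ITGB1 (81.2 ± 8.33). CD44 (54.7 ± 12.1) and ITGB5 (51.0 ± 10.0) followed and overlapped, and ITGA5 (30.4 ± 5.17) lay below both. ITGB3 (12.8 ± 0.719) and ITGAV (10.0 ± 2.98) overlapped, and ITGB6 (4.52 ± 0.975) lay below them. ITGB8 (1.73 ± 0.854) and ITGA4 (1.67 ± 0.542) were lowest and overlapped. The deposited ITGB5 model holds 9 exons and 1245 bp, while the other beta chain models hold 14 to 16 exons and 1883 to 4561 bp, so the place of ITGB5 depends on that model.

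**Figure D4:**
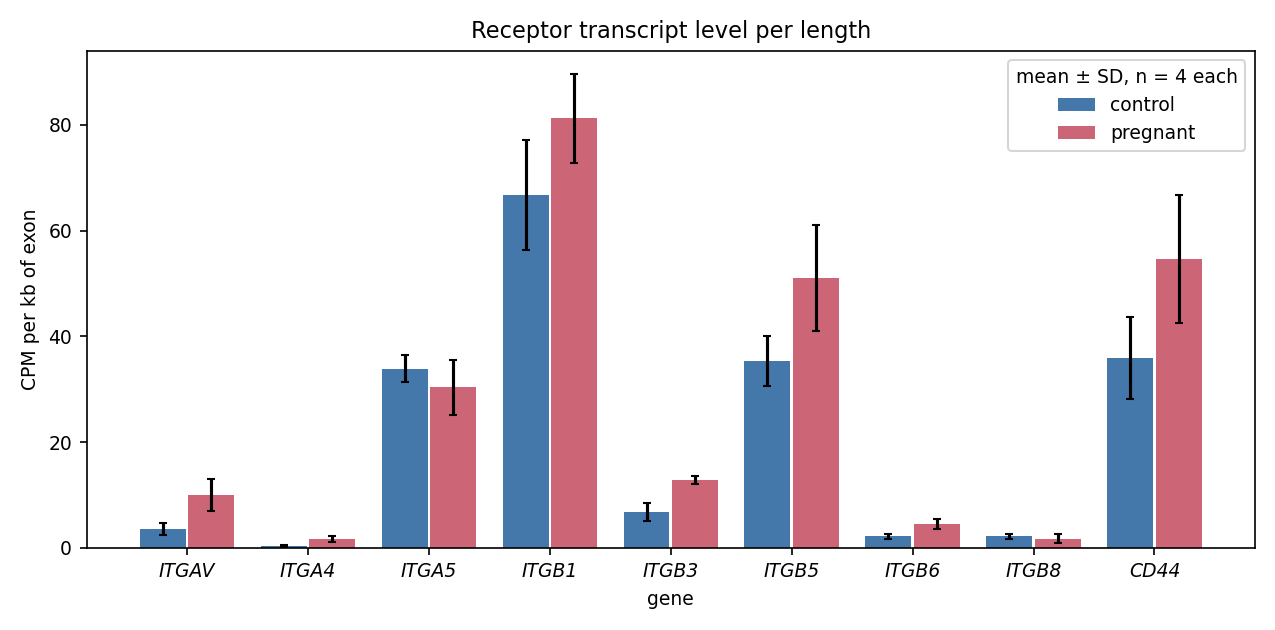
Level of each receptor gene per kb of exon (vertical axis, CPM per kb) as mean ± SD of 4 control animals in blue and 4 pregnant animals in red. ITGB1 is the highest bar in both groups, at 66.7 and 81.2 CPM per kb, and ITGA4 the lowest.

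The balance among chains is described from the same values per kb. The sum of the 5 beta chains was 113 ± 9.37 CPM per kb in controls and 151 ± 11.96 in pregnant animals. ITGB1 made up 58.8 ± 5.89% of that sum in controls and 53.8 ± 5.05% in pregnant animals, and ITGB5 31.4 ± 4.67% and 33.6 ± 5.31%. The share of ITGB6 was 1.61 to 2.33% in controls and 2.38 to 3.63% in pregnant animals, the only chain of the 5 whose shares lay apart. The ratio of ITGAV to the summed beta chains was 0.0315 ± 0.009 in controls and 0.0656 ± 0.0147 in pregnant animals. The ratio of SPP1 to the sum of the 8 integrin chains went from 0.0418 to 0.201 in controls and from 0.391 to 2.20 in pregnant animals.

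Animals did not rank alike across the set. Pregnant replicate 3 had the highest SPP1 and ITGB3 of its group and the lowest level of 6 other genes, ITGAV, ITGA5, ITGB5, ITGB6, ITGB8 and CD44. Pregnant replicate 4 was highest for 5 genes, ITGAV, ITGA4, ITGB1, ITGB8 and CD44, and lowest for 0. Control replicate 1 was lowest for SPP1, ITGAV, ITGA4, ITGB1 and ITGB8 and highest for ITGB3, ITGB5 and CD44.

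CD44, a transmembrane receptor for hyaluronan that also binds osteopontin, was higher in pregnant animals by a small margin (Entrez gene 100525150, chromosome 2, 28156389 to 28249947, minus strand, 18 exons in its longest model). Controls had 149.6, 93.7, 104 and 110.0 CPM and pregnant animals 155, 187, 133 and 221 CPM. Control replicate 1 reached into the pregnant range. The mean rose from 114 ± 24.5 to 174 ± 38.5 CPM, a log2 change of 0.61 ± 0.19 or 1.52-fold (edgeR adjusted p = 0.0419). CD44 failed the threshold when any of the same 6 libraries was left out (adjusted p = 0.0515 to 0.12 with edgeR) and with the replicate number as a block (0.053), and its adjusted p was 0.0136 to 0.12 over all alternatives.

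CD44 is known for variable exons that are spliced into its stalk. The 6 deposited models add exons step by step, from 8 exons and 1971 bp to 18 exons and 3183 bp. The added exons are nested, but the second shortest model has an outer end exon that is 2 bp longer than that of the other 5. Counts rose with the length of the model in every library, and the difference between successive models was taken as the reads added by each further block of exons. For the first 2 blocks that difference also holds any effect of the 2 bp. The 2 shortest models did not pass (edgeR adjusted p = 0.0614 and 0.0586), and the other 4 did (0.0419 to 0.0497). The models share most of their reads, so these are not independent results. Reads outside the shortest model made up 17.8 ± 2.49% of the reads of the longest in controls and 19.8 ± 1.64% in pregnant animals.

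The block of 66 bp nearest to the shared 3′ part had 30.7 ± 4.44 CPM per kb in controls and 49.2 ± 6.74 in pregnant animals. The shortest model itself had 47.9 ± 11.8 and 70.6 ± 14.3. Every model but the shortest holds the block of 66 bp, and the models do not settle whether it is a variable exon. The next block, 1 exon of 207 bp (chromosome 2, 28180628 to 28180834), went from 14.3 ± 1.42 to 31.0 ± 9.06 CPM per kb. It added 84, 90, 89 and 118 reads in the controls and 134, 251, 163 and 295 in the pregnant animals. Relative to the shortest model its level was 21.2 to 35.9% in controls and 35.5 to 49.5% in pregnant animals, so that control replicate 4 and pregnant replicate 1 met. The block of 192 bp was at 27.9 ± 3.87 and 45.7 ± 15.3 CPM per kb, the block of 5 exons at 14.0 ± 1.01 and 24.1 ± 8.13, and the block of 129 bp farthest upstream at 6.88 ± 1.14 and 11.6 ± 3.22. Relative to the shortest model the levels of these 3 blocks overlapped between the groups. These block values were chosen after the counts were seen and were not tested. The counting rule is not given in the sources used here, and reads that span a junction may be counted on both of its sides.

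**Figure D5:**
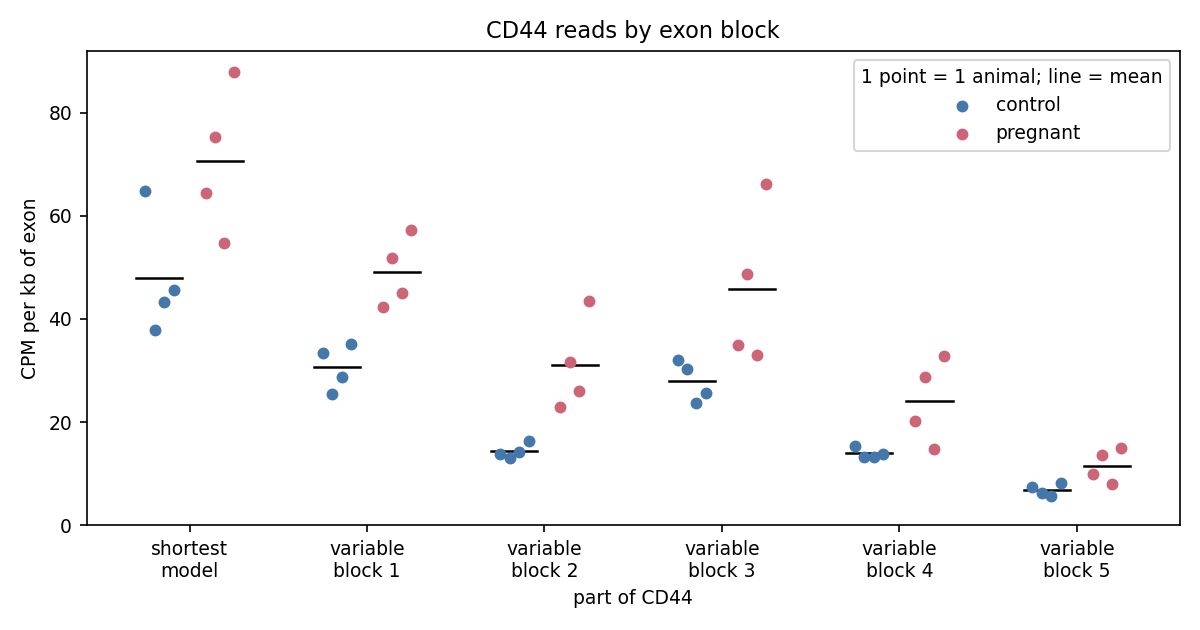
CD44 level by part of the gene in CPM per kb of exon (vertical axis), with 1 point for each animal and the group mean as a line. Shown are the shortest model and the 5 blocks of added exons, labelled variable blocks, ordered as the models grow. Block 1 is an exon that every model but the shortest holds. Control and pregnant points lie apart for blocks 1 to 3 and overlap for the shortest model and for blocks 4 and 5.

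Other integrin chains changed in both directions. Of 16 tested 4 rose (25%) and 3 fell (18.75%), with a median log2 change of −0.065. Among all transcripts 11.2% were higher and 10.1% lower. Chains of leukocytes were among those that rose, ITGAL (2.06 ± 0.17), the beta chain ITGB2 with which it pairs (1.76 ± 0.25) and ITGAM of myeloid cells. ITGAM rose from 16.2 ± 5.15 to 45.6 ± 14.5 CPM. The epithelial laminin receptor chain ITGB4 fell from 1240.0 ± 122 to 419 ± 111 CPM (adjusted p = 2.40e-04 with edgeR), and its partner ITGA6 fell by 1.05 on the log2 scale. The collagen receptor chain ITGA11 fell from 31.8 ± 5.17 to 11.5 ± 1.86 CPM, but part of its exons belongs to another gene as well, which makes its reads uncertain. ITGB7, the other beta chain that pairs with ITGA4, did not pass (53.6 ± 9.83 CPM against 45.6 ± 8.37 CPM, adjusted p = 0.368 with edgeR). ITGAM, ITGA6 and ITGB7 were named after their values were seen.

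Other ligands of these integrins also changed in both directions, with 7 of 27 tested higher, 7 lower and a median log2 change of 0.11. That is 25.9% each way, beside 11.2% higher and 10.1% lower among all transcripts. VCAM1, the endothelial ligand of ITGA4 with ITGB1, rose from 42.0 ± 8.66 to 135 ± 40.6 CPM (1.68 ± 0.24 on the log2 scale, adjusted p = 7.52e-04 with edgeR). Fibronectin (FN1), the ligand of ITGA5 with ITGB1, rose from 657 ± 73.1 to 1174 ± 301 CPM (0.84 ± 0.18), and TGFB1, whose latent form binds ITGAV with ITGB6 or ITGB8, from 48.1 ± 7.94 to 90.0 ± 6.26 CPM (0.90 ± 0.14). Nephronectin (NPNT), a basement membrane ligand, fell from 14.8 ± 2.14 to 4.29 ± 0.316 CPM (−1.78 ± 0.16), and the matricellular protein gene CTGF fell (−1.49 ± 0.19). Of the other members of the osteopontin family, DMP1 (9.24 ± 2.13 and 7.89 ± 0.467 CPM) and DSPP (6.98 ± 0.525 and 5.89 ± 0.478 CPM) did not pass, and IBSP and MEPE had too few reads to be tested. FN1 and these family members were named after their values were seen.

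Of 25 adaptors and kinases that link integrins to actin, 4 rose, 2 fell and 19 did not pass, with a median log2 change of 0.084. This is near the 11.2% higher and 10.1% lower among all transcripts. The kindlin of blood cells, FERMT3 (1.69 ± 0.22), and the parvin of blood cells, PARVG (2.33 ± 0.32), rose, and the talin gene TLN2 fell (−0.82 ± 0.19). BCAR1, a docking protein of focal adhesions, rose (0.55 ± 0.14) with an adjusted p of 0.0178 by edgeR, and of 0.0593 once pregnant replicate 2 was left out (0.00217 to 0.0593 over all alternatives). FERMT3 overlaps a gene of the other strand, from which these libraries cannot separate it.

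Of 17 genes of hyaluronan handling and other CD44 partners 3 rose and 3 fell (17.65% each), beside 11.2% higher and 10.1% lower among all transcripts. The hyaluronan-degrading surface enzyme gene TMEM2 rose from 18.9 ± 3.84 to 43.5 ± 5.84 CPM, and the proteoglycan gene SRGN, a CD44 ligand of blood cells, from 10.7 ± 2.73 to 29.8 ± 7.29 CPM. CEMIP, which also takes part in hyaluronan breakdown, fell from 30.5 ± 12.7 to 5.73 ± 3.40 CPM (−2.41 ± 0.48 on the log2 scale, adjusted p = 0.00641 with edgeR). Of 8 tested enzymes known to act on osteopontin 2 rose (25%) and 1 fell (12.5%), beside the same shares of all transcripts. The plasminogen gene PLG rose from 0.0319 ± 0.0370 to 0.798 ± 0.267 CPM (log2 change 4.50 ± 0.69, adjusted p = 0.00108 with edgeR). It overlaps a gene of the other strand, so its reads are uncertain. The protease gene MMP7 rose from 0.153 ± 0.142 to 1.204 ± 0.589 CPM (log2 change 2.94 ± 0.71, and 3.74 without control replicate 4). Both rose from very low levels. FAM20C, the kinase that phosphorylates osteopontin, fell from 67.1 ± 18.0 to 32.9 ± 6.78 CPM (−1.03 ± 0.21 on the log2 scale, adjusted p = 0.006 with edgeR). The crosslinking enzyme gene TGM2, named after its values were seen, did not pass (1098 ± 312 CPM in controls, 1035 ± 338 CPM in pregnant animals, adjusted p = 0.858 with edgeR).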

How the data were processed

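The 8 libraries were grouped by their titles into 4 control and 4 pregnant animals. Whole-number read counts for each transcript of a merged assembly were deposited by the authors, per the file headers, with exon positions. CASAVA 1.6, TopHat 1.4, Cufflinks 1.3, DESeq and the build Sscrofa10.2 are named in the submitters' processing notes. The counting tool is not given in the sources used here. Poly(A) libraries were made with a kit that does not mark strand, so overlapping genes share reads; the models of the 10 genes overlap no other gene.

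Symbols came from a RefSeq table of Sscrofa11.1, used for names only (16270 Entrez genes matched by ID, 103 by accession). The main test was edgeR 4.0.16 (R 4.3.3) with group as the only term, TMM scaling and robust quasi-likelihood dispersion. Its filterByExpr step, at a minimum count of 10, kept 18783 transcripts and left out 5356. SE are those implied by the F statistic, intervals use its total (prior plus residual) degrees of freedom, and CPM use TMM-scaled library sizes. The test was also run, after the main fit, on counts simulated from the mean levels and dispersions of these data. Alternatives were DESeq2 1.42.0, limma voom 3.58.1, other scalings and filters, 1 transcript per gene, a replicate block and leaving out each library.

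The genes, lists and tests were chosen with earlier results of these data known. Named were the 10 genes, in each list up to 4 passing genes of smallest p (3 for cell markers; some are not printed), and the 5 genes most like SPP1. Of the further marker lists, 2 of 11 endothelial genes rose, and 2 of 9 stromal genes rose and 2 fell. In the same way 5 of 8 smooth muscle genes fell, and 3 of 7 neutrophil genes rose and 1 fell. The shares of all transcripts were 11.2% higher and 10.1% lower. No sequence tables were used here.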

Additional observations from a re-analysis of the deposited data

Results flagged for a closer look

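The ITGB8 level of pregnant replicate 4, 6.92 CPM, lay far from the other 3 pregnant animals (2.85 to 3.19 CPM). The gap to the nearest of them was 0.917 of the range of the group, above Dixon's critical value for 4 samples. It was the only such value among the 20 groups of 4 examined, and chance gives about 1 in 20.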

How the results depend on the processing

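Over the 15 alternatives no gene of the set changed direction, and SPP1, ITGAV, ITGA4, ITGB3 and ITGB6 passed under each of them, while ITGA5, ITGB1 and ITGB8 passed under none. The number of genes higher was 5 to 7 when 1 library was left out, and the number lower was 0. With 1 library left out, the log2 change was 0.44 to 0.66 for ITGB5 and 0.47 to 0.79 for CD44. The number of all transcripts lower was 1265 (without pregnant replicate 2) to 2017. With the replicate number as a block CD44 did not pass (log2 change 0.60, edgeR adjusted p = 0.053), and 3883 transcripts passed in place of 4009. The titles give the numbers as biological replicates and name no pairing. Deviations of same-numbered animals correlated at −0.0932 to 0.186, and the own number was the best match for 1 of 4 pairs, that of replicate 1 (0.186). So few pairs cannot settle whether the numbers carry more than names. Other scalings moved the median of all transcripts by at most 0.0101 on the log2 scale.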
